A study of Mus musculus with 12 samples.

Results

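Ribosomes are built in the nucleolus, where RNA polymerase I transcribes the ribosomal RNA precursor and a large set of proteins and small nucleolar RNAs (snoRNAs) modify, cut and fold it. In thymocytes this programme is known to be high in dividing cells and to fall when cells stop dividing, and the transcription factor MYC is a well known activator of it. The genes described here were chosen by name and not by their values: those named Utp, Nop, Rrp, Noc or Nol followed by a digit, Polr1a to Polr1e, and Npm1, Ncl, Fbl, Nhp2, Gar1, Dkc1, Bop1, Pes1, Wdr12, Rrs1 and Ddx21. There were 53 such genes among the 24421 genes of the table. They encode subunits of RNA polymerase I (5 genes), the box C/D snoRNA particle that methylates ribosomal RNA (3), the box H/ACA particle that converts uridine to pseudouridine (4), the U3 particle and the small subunit processome (19), the PES1-BOP1-WDR12 complex (3), other factors of large subunit processing (13) and abundant nucleolar proteins (3). Another 3 (Nol3, Nol4 and Nol4l) match by name only and have no established role in ribosome assembly.

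The study asked what loss of Bcl6, a transcriptional repressor, does to early T cell development. Mouse embryos of the C57BL/6 background all lacked Rag1, a recombinase without which no T cell receptor gene is assembled, and all carried loxP-flanked Bcl6 alleles. KO embryos also carried LckCre, a Cre recombinase under the T lineage promoter of Lck, and control embryos did not, so loss of Bcl6 and the presence of Cre cannot be told apart. CD25-positive cells were sorted from unstimulated thymi at day E16.5 of gestation. ISP cells (immature single-positive, CD8-positive and CD4-negative) and DP cells (CD4-positive and CD8-positive) were sorted from thymi kept on filters for 2 days under anti-CD3 at 1 µg/ml, a stimulus that mimics the missing receptor signal. The treatment text gives E17.5 where the other labels give E16.5. There were 12 libraries in 6 groups of 2: CD25 KO, CD25 control, ISP KO, ISP control, DP KO and DP control. The labels leave unsaid whether embryos were shared or pooled between the 2 libraries of a group, so p-values measure the spread between these samples, which may be technical.

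Recovered reads summed to between 9658180 and 14228715 per library, of which 42357 to 124937 fell on the 53 genes. Titles and sequencing library names disagree on population or genotype in 6 of the 8 anti-CD3 libraries, and groups here follow the titles. Cd4 was at 191 to 344 RPKM (reads per kilobase of gene, scaled to sequencing depth) in every library titled DP and at 13.9 to 20.5 RPKM in those titled ISP. Il2ra, which encodes CD25, was at 538 to 603 RPKM in the CD25 libraries and at 14.5 to 44.7 RPKM in the others. Bcl6 was at 87.8 and 111 RPKM in DP KO and at 72.5 and 69.95 RPKM in DP control libraries, a value over all exons that is no check of the deletion. The Y-linked gene Ddx3y was listed at 0 to 0.0979 RPKM in ISP KO and DP KO and at 7.28 to 56.3 RPKM in ISP control and DP control libraries. Xist, the RNA of the inactive X chromosome, stood at 0.766 RPKM in ISP control 2, at 0.914 RPKM in DP control 2 and at 9.79 to 25.6 RPKM in the other 10 libraries. In ISP and DP cells every KO library thus differed from every control library in Ddx3y. Loss of Bcl6 and the sex of the embryos therefore cannot be told apart in these cells, for any gene. Dkc1 and Utp14a lie on the X chromosome, and the part of sex in their values was not tested.

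Levels differed widely among the 53 genes. Npm1, which encodes the nucleolar chaperone nucleophosmin, had the highest median over the 12 libraries, 625 RPKM. It was followed by Nop10, Rrp1, Nop56 and Nop58. Nol4 was listed at 0 in every library and Nol3 at 0.0640 RPKM or less, and these 2 were below the filter of 1 RPKM in at least 2 libraries, so 51 genes were tested. By that median Nol4l, Utp14b, Utp20 and Noc3l were the lowest of the genes tested, with 0.174 to 8.47 RPKM over their libraries. Exons of 20 of the 53 genes overlap an exon of another gene, such as Wdr12 with Carf and Nhp2 with Rmnd5b, and whether strand was used in counting is not given in the sources used here.

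The summed level of the 53 genes split the populations. It made up 0.816% to 0.854% of all RPKM in the CD25 libraries, 0.799% to 0.870% in the ISP libraries, 0.476% and 0.485% in DP KO and 0.427% and 0.431% in DP control libraries. CD25 and ISP libraries overlapped. Every DP library lay below every CD25 and ISP library, and both DP KO libraries lay above both DP control libraries. The lowest library was a DP library for 44 of the 51 tested genes and a DP control library for 40 of them, while the highest was an ISP library for 32, a CD25 library for 17 and a DP library for 2.

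**Figure D1:**
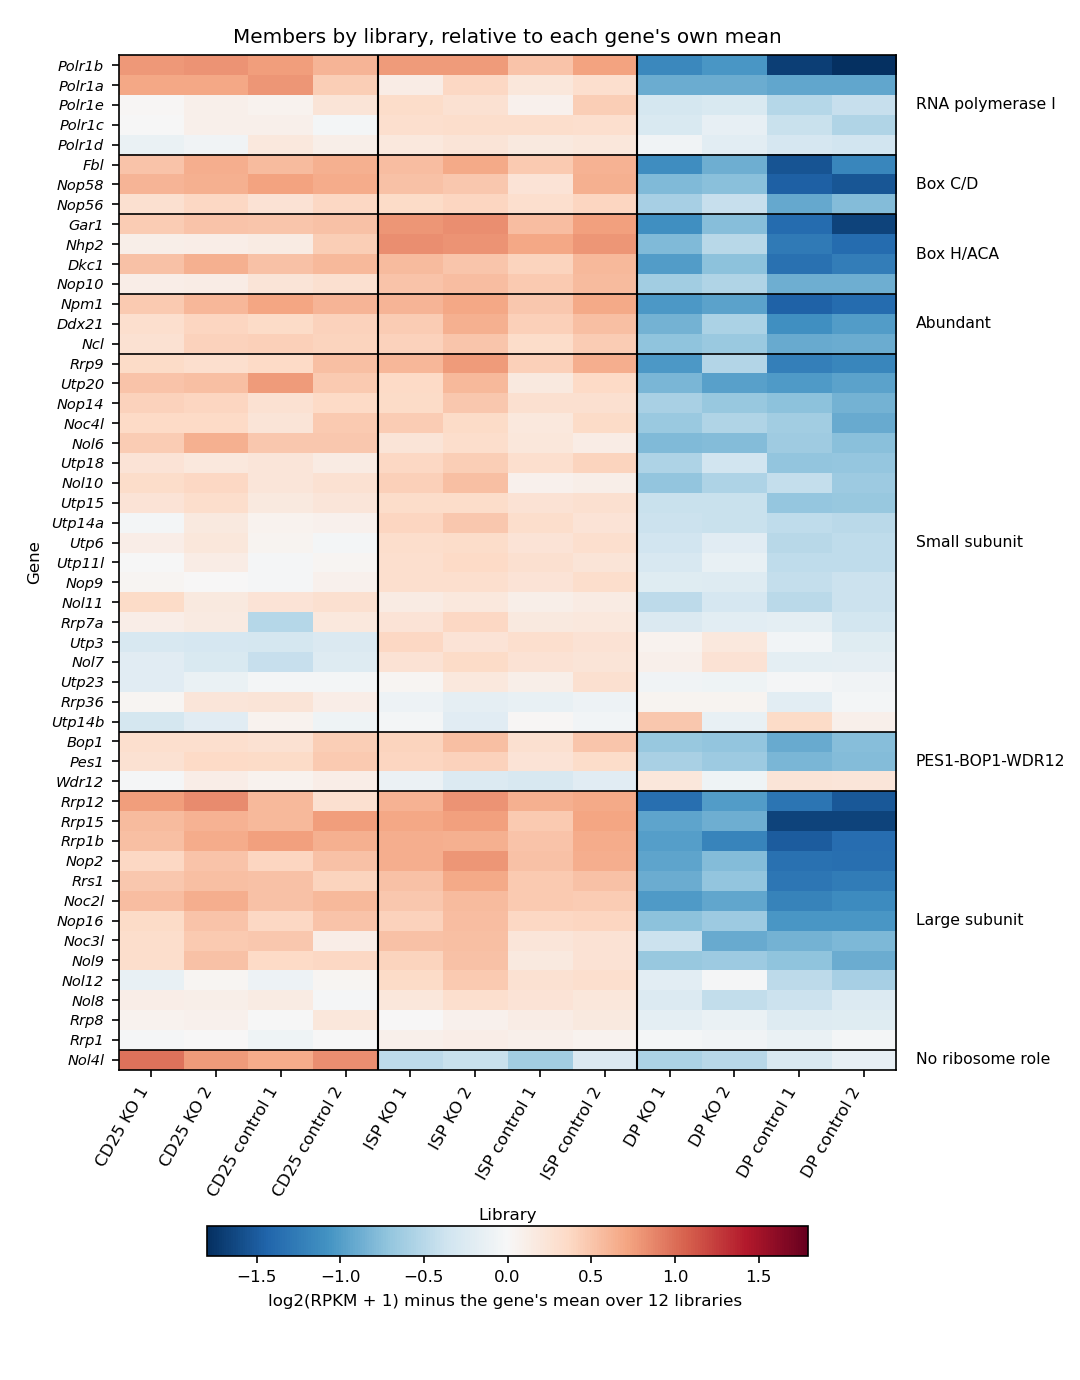
Level of the 51 tested genes (rows, grouped by role) in the 12 libraries (columns), as log2(RPKM + 1) minus the mean of the gene over the 12 libraries, red above and blue below that mean. The single lowest library is a DP library for 44 of the 51 genes. The DP control libraries are darker blue than the DP KO libraries in the box C/D, box H/ACA and abundant nucleolar groups.

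The first step compared ISP cells with CD25 cells, to ask how the ribosome assembly genes stood after the CD3 stimulus. Of 51 tested genes, 16 were higher and 6 lower in ISP (limma, Benjamini-Hochberg adjusted p under 0.05 over all 11303 genes tested). Over all tested genes 33.1% were higher and 30.9% lower, so the share of higher genes was close to the background. The median log2 change was 0.05 over the 52 genes above 0 in any library, and 0.01 over all tested genes. Scaling libraries to an equal sum of RPKM turned the split to 9 higher and 13 lower and the median to -0.05, and moved the median of all tested genes to -0.10. With groups by library name the counts were 3 higher and 33 lower. ISP cells had been stimulated and kept in culture and CD25 cells had not, so stage and treatment cannot be told apart.

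In the box H/ACA group 3 of 4 genes rose in this step, beside 33.1% of all tested genes, and Dkc1 was not called. Nhp2, the core protein that binds the snoRNA hairpin, was at 209, 205, 190 and 203 RPKM in ISP and at 125, 127, 129 and 159 RPKM in CD25 libraries, with no overlap (log2 change 0.58, SE 0.07, adjusted p = 1.99e-05). Nop10, a small core protein, averaged 526 ± 16.7 RPKM in ISP and 418 ± 22.8 RPKM in CD25 (0.33, SE 0.04, adjusted p = 1.36e-05). Gar1, which helps release the modified RNA, rose by 0.23 (SE 0.08, adjusted p = 0.0223), a call lost without CD25 KO 1, CD25 control 1, ISP KO 2 or ISP control 2 (0.19 to 0.23). Dkc1, the pseudouridine synthase, was at 139 ± 7.71 RPKM in ISP and 144 ± 5.78 RPKM in CD25 (SD, n = 4 each; adjusted p = 0.468). The box H/ACA particle is shared with telomerase, so these genes also serve telomere upkeep.

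Among small subunit factors 8 of 19 rose (42.1%) and 2 fell (10.5%), beside 33.1% and 30.9% of all tested genes. Utp3, the homologue of a yeast processome protein, was at 129, 118, 123 and 119 RPKM in ISP and at 81.1, 80.5, 80.0 and 83.2 RPKM in CD25 libraries (log2 change 0.58, SE 0.05, adjusted p = 9.57e-07). Nol7 was at 117, 125, 118 and 116 RPKM in ISP and at 84.8, 81.0, 73.6 and 83.8 RPKM in CD25 libraries (0.56, SE 0.05, adjusted p = 2.05e-06). For both genes all ISP libraries stood above all CD25 libraries. Utp14a, Nop9, Utp11l, Utp23, Utp6 and Utp18 rose by 0.18 to 0.29. Nol12, a factor of large subunit processing, rose by 0.39 (SE 0.07), and the polymerase subunit Polr1c rose by 0.27 (SE 0.05).

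The genes that fell were Nol4l, Polr1a, Nol6, Wdr12, Rrp36 and Nop58. Polr1a, the largest catalytic subunit of RNA polymerase I, averaged 9.46 ± 0.736 RPKM in ISP and 12.8 ± 1.37 RPKM in CD25 (SD, n = 4 each; log2 change -0.40, SE 0.09, adjusted p = 0.00130). Wdr12, which encodes a subunit of the complex with PES1 and BOP1, averaged 52.5 ± 2.82 RPKM in ISP and 64.1 ± 3.07 RPKM in CD25 (-0.28, SE 0.06). Nol4l, which has no established role here, had the largest fall, to 0.337 ± 0.136 RPKM in ISP, against 2.16 ± 0.285 RPKM in CD25 (-1.24, SE 0.12). Nop58 fell by 0.19 with overlapping libraries (adjusted p = 0.0316), a call lost without 6 of the 8 libraries in turn (-0.20 to -0.09; all but CD25 control 2 and ISP control 2). Npm1, Ncl, Fbl, Nop56, Rrs1, Ddx21, Pes1 and Bop1 were not called, with log2 changes between -0.02 and 0.15.

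Nearly the whole group was lower at the DP stage. Relative to ISP, 47 of 51 tested genes were lower in DP and 1 was higher, against 35.0% lower and 35.6% higher over all tested genes. The median log2 change of the 52 genes was -1.02, with 0.01 over all tested genes, and in 46 of the 51 genes all 4 DP libraries lay below all 4 ISP libraries, which held for 29.4% of all tested genes. Under an equal sum of RPKM 43 were lower and 3 higher, and in the 4 libraries whose title and library name give the same population 43 were lower and 2 higher. With groups by library name limma called 0 of the 51, and the median was -0.06. In bulk samples, fewer cells of a type and less RNA per cell cannot be told apart.

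Other lists moved in the same step, in which 35.0% of all tested genes were lower and 35.6% higher. All 22 S phase genes were lower in DP, with sums of 1853 to 2802 RPKM in DP and 3974 to 4253 RPKM in ISP libraries, while of 23 genes of G2 and mitosis 8 were lower and 3 higher. All 7 tested markers of NK and innate lymphoid cells were lower, with sums of 115 to 230 RPKM in DP and 1068 to 1310 RPKM in ISP libraries, as were both tested mast cell markers. Of 10 tested myeloid markers 3 were lower and 2 higher. The 3 tested long nuclear RNAs, Malat1, Neat1 and Kcnq1ot1, listed as a sign of RNA quality, were higher, with a list sum of 137 to 261 RPKM in DP and 46.9 to 83.04 RPKM in ISP libraries. The part of these in the lower levels of the ribosome assembly genes was not tested.

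RNA polymerase I genes fell unevenly. Polr1b, the second largest subunit, was at 4.88 and 5.34 RPKM in DP KO, 3.06 and 2.78 RPKM in DP control, 21.4 and 21.2 RPKM in ISP KO, and 17.8 and 20.6 RPKM in ISP control libraries. Its DP mean was 24.0% of the ISP mean in KO and 15.2% in control cells. Its log2(RPKM + 1) fell the most among the 51 genes (-2.11, SE 0.07, adjusted p = 2.07e-10 in limma). As a share, Rrp12, a gene of lower level, kept less (18.5% in KO and 14.4% in control cells). Polr1a fell by 1.17 (SE 0.09), Polr1e by 0.66 (SE 0.08), Polr1c by 0.65 (SE 0.05) and Polr1d by 0.42 (SE 0.04), so the smaller log2 falls were those of the peripheral subunit and of the subunits shared with RNA polymerase III.

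Core snoRNA particle genes all fell. Fibrillarin (Fbl), the methyltransferase of the box C/D particle, averaged 19.3 ± 3.77 RPKM in DP and 66.9 ± 4.16 RPKM in ISP cells (log2 change -1.76, SE 0.08, adjusted p = 3.30e-09), and its partners Nop58 (-1.61, SE 0.07) and Nop56 (-1.03, SE 0.05) averaged 65.6 ± 19.1 and 124 ± 18.8 RPKM in DP cells. In the box H/ACA particle Gar1 averaged 17.8 ± 5.02 RPKM in DP and 70.2 ± 5.85 RPKM in ISP cells (-1.95, SE 0.08). Nhp2 fell by 1.77 (SE 0.07), Dkc1 by 1.59 (SE 0.06) and Nop10 by 1.25 (SE 0.04). Abundant nucleolar proteins fell too: Npm1 averaged 188 ± 32.0 RPKM in DP and 659 ± 43.2 RPKM in ISP cells (-1.82, SE 0.05), the RNA helicase Ddx21 fell by 1.39 (SE 0.07) and nucleolin (Ncl) by 1.22 (SE 0.05), all with adjusted p of 5.05e-09 or less in limma.

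Large subunit factors fell in 13 of 13 genes, where 35.0% of all tested genes were lower. Rrp12, which acts in export of pre-ribosomes in yeast, averaged 1.38 ± 0.369 RPKM in DP and 8.38 ± 0.549 RPKM in ISP cells (log2 change -1.99, SE 0.10). Rrp15 fell by 1.94 (SE 0.06), Rrp1b by 1.87 (SE 0.07), Nop2, a methyltransferase of the large subunit RNA, by 1.76 (SE 0.06) and Rrs1 by 1.59 (SE 0.06). Rrp1, a paralogue of Rrp1b, stood at 267 ± 7.53 RPKM in DP and 298 ± 4.16 RPKM in ISP cells and fell by 0.16 (SE 0.04), and its level was far above that of Rrp1b. Among small subunit factors 17 of 19 fell, from Rrp9, a U3 particle protein (-1.60, SE 0.10), and Utp20 (-1.31, SE 0.10) to Utp23 (-0.21, SE 0.07), while Rrp36 and Utp14b were not called (0.09, SE 0.06, and 0.27, SE 0.13).

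Wdr12 was the 1 gene that rose, and its partners fell. It was at 70.2 and 57.8 RPKM in DP KO, 71.9 and 71.2 RPKM in DP control, 56.4 and 51.1 RPKM in ISP KO, and 49.9 and 52.7 RPKM in ISP control libraries. All DP libraries lay above all ISP libraries (log2 change 0.36, SE 0.06, adjusted p = 2.62e-04 in limma). Pes1 fell by 1.05 (SE 0.05) and Bop1 by 1.19 (SE 0.06), to 26.2 ± 2.17 and 25.9 ± 1.87 RPKM in DP, against 55.2 ± 2.89 and 60.4 ± 4.80 RPKM in ISP cells (SD, n = 4 each). Carf, the gene whose exon overlaps Wdr12, was at 2.41 to 4.40 RPKM in DP and 1.37 to 1.75 RPKM in ISP libraries and rose by 0.82 (SE 0.12); its part in the value of Wdr12 was not tested.

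**Figure D2:**
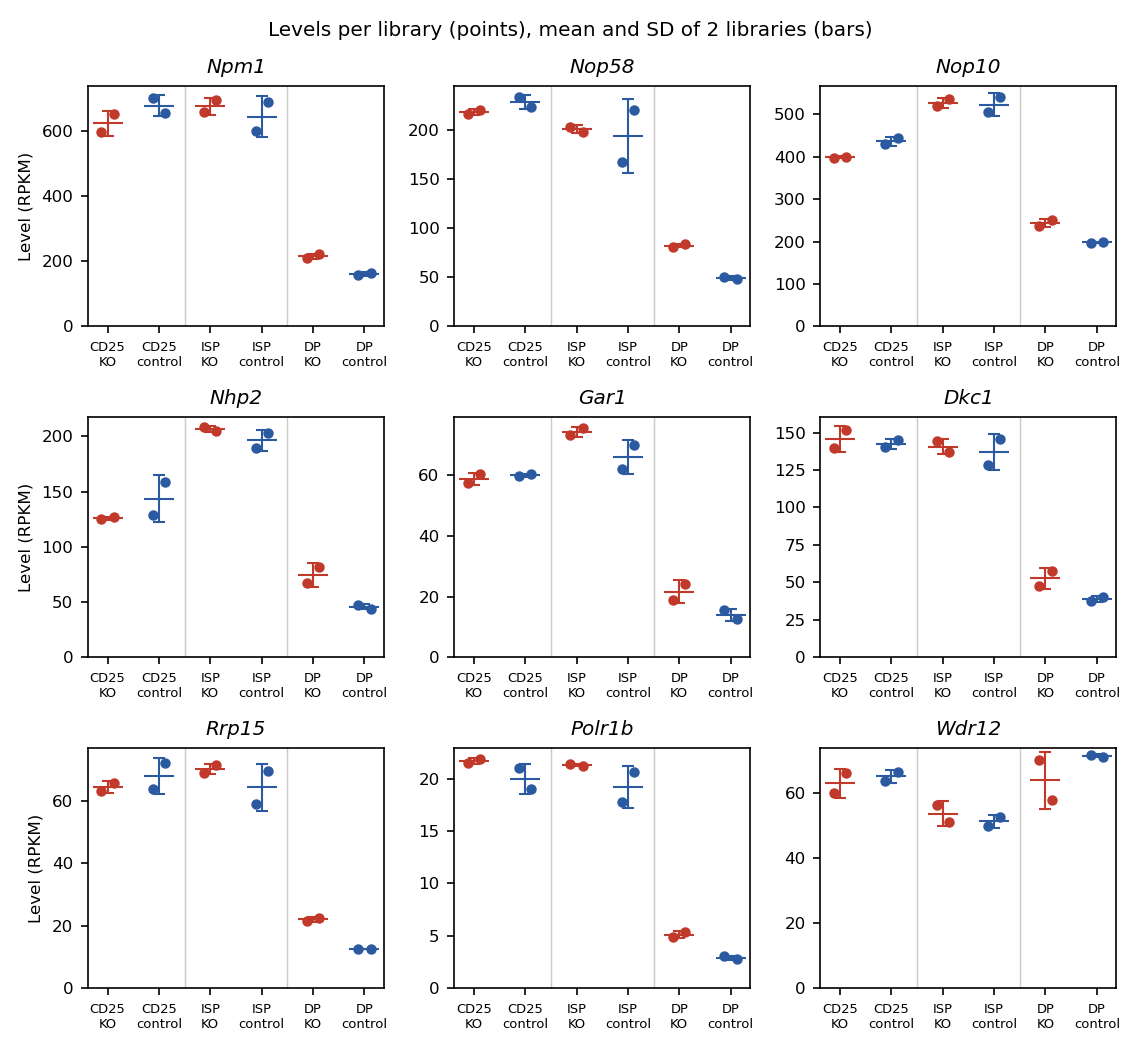
Level in RPKM of 9 genes in each library (points), with the mean and SD of the 2 libraries of a group (horizontal line and error bar), for KO (red) left of control (blue) in CD25, ISP and DP cells. DP levels are the lowest in 8 of the panels, and in Wdr12 the ISP libraries are the lowest.

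Set against CD25 cells, DP cells gave a like count: 44 lower and 3 higher (Nol7, Utp3 and Utp14b), where 38.4% of all tested genes were lower and 37.3% higher. Titles and library names give the same groups when the 8 anti-CD3 libraries are set against the 4 of CD25, and there 36 were lower and 3 (Utp3, Nol7 and Utp23) higher, against 36.5% and 35.6% of all tested genes. Both comparisons share the CD25 libraries with the first step. Utp3 stood at 111 ± 14.6 RPKM over the anti-CD3 libraries and 81.2 ± 1.38 RPKM over the CD25 libraries (SD, n = 8 and n = 4; log2 change 0.44, SE 0.04, adjusted p = 2.28e-06 in limma).

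Loss of Bcl6 was next compared within each population. In CD25 cells limma called 0 of 51 genes and in ISP cells 0 of 51, where 0.0094% of all tested genes were higher and as many lower in CD25 KO, and 0.257% were higher and 0.0973% lower in ISP KO. In each population 2 of the 51 genes had an unadjusted p under 0.05, and a fit of recovered reads with voom called 0 in CD25 and 1 in ISP. The median log2 change was -0.01 in CD25 and 0.06 in ISP. In ISP cells 46 of the 52 genes above 0 had a log2 change above zero. Over all 17114 genes above 0, 7787 lay above zero and 7992 below. ISP control 1 had the lowest summed share of the ISP libraries (0.799%), and the median ran from 0.03 to 0.12 with 1 library left out. The largest change was that of Nol10, at 12.9 and 14.1 RPKM in ISP KO and 9.91 and 10.2 RPKM in ISP control libraries (0.39, SE 0.10, adjusted p = 0.109 in limma).

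In DP cells KO and control differed in 25 of 51 genes, all higher in DP KO and all without overlap of libraries, where 14.1% of all tested genes were higher and 7.78% lower. The median log2 change was 0.20 over the 52 genes, and 0.00 over all tested genes. Both DP KO libraries lay above both DP control libraries in 37 genes and below them in 2, of the 50 genes with at least 1 RPKM in both ISP groups. That order held for 32.0% of all tested genes. The count of 25 fell to 11 without DP KO 2, to 12 without DP control 1 and to 14 without DP control 2, and to 14 with an equal sum of RPKM, a scaling under which 8.43% of all tested genes were higher and 15.7% lower. In 9 genes (Gar1, Nhp2, Nop10, Nop2, Nop58, Npm1, Polr1b, Rrp15 and Rrs1) the call held in all 14 alternatives that keep the titles, and the other 16 lost it in at least 1. With groups by library name the direction turned (2 higher, 43 lower, median -0.97), since all libraries titled DP carry KO and all titled ISP carry WT in those names.

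Rrp15, a factor of the large subunit, had the largest difference in log2(RPKM + 1), a scale that understates changes of lower genes such as Polr1b. Rrp15 was at 21.5 and 22.7 RPKM in DP KO and at 12.7 and 12.7 RPKM in DP control libraries (log2 change 0.75, SE 0.08, adjusted p = 2.91e-04 in limma). Nop58 was at 80.8 and 83.4 RPKM in DP KO and at 50.4 and 47.9 RPKM in DP control libraries (0.73, SE 0.10, adjusted p = 6.69e-04). In both genes the 2 libraries of a genotype lay close together and far from those of the other.

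Box H/ACA genes were higher in all 4 cases, beside 14.1% of all tested genes. Nhp2 was at 67.0 and 82.2 RPKM in DP KO and at 47.7 and 44.1 RPKM in DP control libraries (log2 change 0.68, SE 0.10, adjusted p = 0.00130). Gar1 was at 18.9 and 24.2 RPKM in DP KO and at 15.5 and 12.6 RPKM in DP control libraries (0.59, SE 0.11, adjusted p = 0.00427). Library 2 was the higher of the DP KO libraries for both. Dkc1, at 47.9 and 57.8 RPKM in DP KO and 37.7 and 40.6 RPKM in DP control libraries, rose by 0.42 (SE 0.09), and Nop10 rose by 0.30 (SE 0.06). The call of Dkc1 was lost without DP KO 2 (0.29) or DP control 1 (0.37). Rmnd5b, whose exon overlaps Nhp2, was not called (-0.03, SE 0.10).

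Box C/D and abundant nucleolar genes were higher in 6 of 6 cases, beside 14.1% of all tested genes. Npm1 was at 209 and 221 RPKM in DP KO and at 157 and 165 RPKM in DP control libraries (log2 change 0.42, SE 0.08, adjusted p = 0.00305). Fbl was at 20.02 and 23.6 RPKM in DP KO and at 14.4 and 19.2 RPKM in DP control libraries, close to overlap (0.36, SE 0.12, adjusted p = 0.0470). Nop56 rose by 0.34 (SE 0.08), Ddx21 by 0.34 (SE 0.10) and Ncl by 0.20 (SE 0.06). Fbl and Nop56 lost their calls without DP KO 2 (0.25 for both) or DP control 1 (0.17 and 0.27). Ncl lost its call without any 1 of the 4 libraries (0.17 to 0.23), and Ddx21 without DP KO 2 (0.20), DP control 1 (0.30) or DP control 2 (0.39).

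Among polymerase subunits Polr1b, at 4.88 and 5.34 RPKM in DP KO and 3.06 and 2.78 RPKM in DP control libraries, was higher (log2 change 0.64, SE 0.09, adjusted p = 0.00112), as were Polr1c (0.26) and Polr1d (0.20). Polr1a did not follow it: it stood at 3.73 and 3.70 RPKM in DP KO and at 3.58 and 3.59 RPKM in DP control libraries (0.04, SE 0.12, adjusted p = 0.847). In the large subunit group 6 of 13 (46.2%) were higher, beside 14.1% of all tested genes. Nop2 averaged 20.4 ± 1.76 RPKM in DP KO and 14.4 ± 0.0621 RPKM in DP control (0.48, SE 0.09), and Rrs1 was at 15.5 and 17.7 RPKM in DP KO and 11.4 and 11.9 RPKM in DP control libraries (0.48, SE 0.08). Nol12 rose by 0.43 (SE 0.09), a call lost without DP KO 2 (0.34) or DP control 2 (0.37). Rrp1b rose by 0.35 (SE 0.10), a call lost without DP KO 1 (0.25) or DP control 1 (0.28), and Nop16 rose by 0.34 (SE 0.08), a call lost without DP KO 2 (0.30), DP control 1 (0.34) or DP control 2 (0.34). Polr1c lost its call without DP KO 2 (0.20) or DP control 2 (0.20), and Polr1d without DP KO 1 (0.14), DP control 1 (0.22) or DP control 2 (0.18).

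In the small subunit group 6 of 19 genes (31.6%) were higher, beside 14.1% of all tested genes. Rrp9 was at 14.7 and 21.4 RPKM in DP KO and at 12.7 and 13.2 RPKM in DP control libraries, with a wide spread in DP KO (log2 change 0.42, SE 0.14, adjusted p = 0.0468). Its call was lost without DP KO 2 (0.17), DP control 1 (0.40) or DP control 2 (0.45). Nol7, Utp15, Utp3, Utp18 and Utp11l rose by 0.24 to 0.34, and each lost its call without DP KO 2 (0.14 to 0.28) and without at least 1 DP control library (0.17 to 0.33). Utp20, a very large processome scaffold, was at 1.86 and 1.57 RPKM in DP KO and at 1.495 and 1.59 RPKM in DP control libraries (0.09, SE 0.14). The PES1-BOP1-WDR12 complex had no called gene: Pes1 (0.19, SE 0.07, adjusted p = 0.0635), Bop1 (0.14, SE 0.09) and Wdr12 (-0.16, SE 0.09, adjusted p = 0.209).

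**Figure D3:**
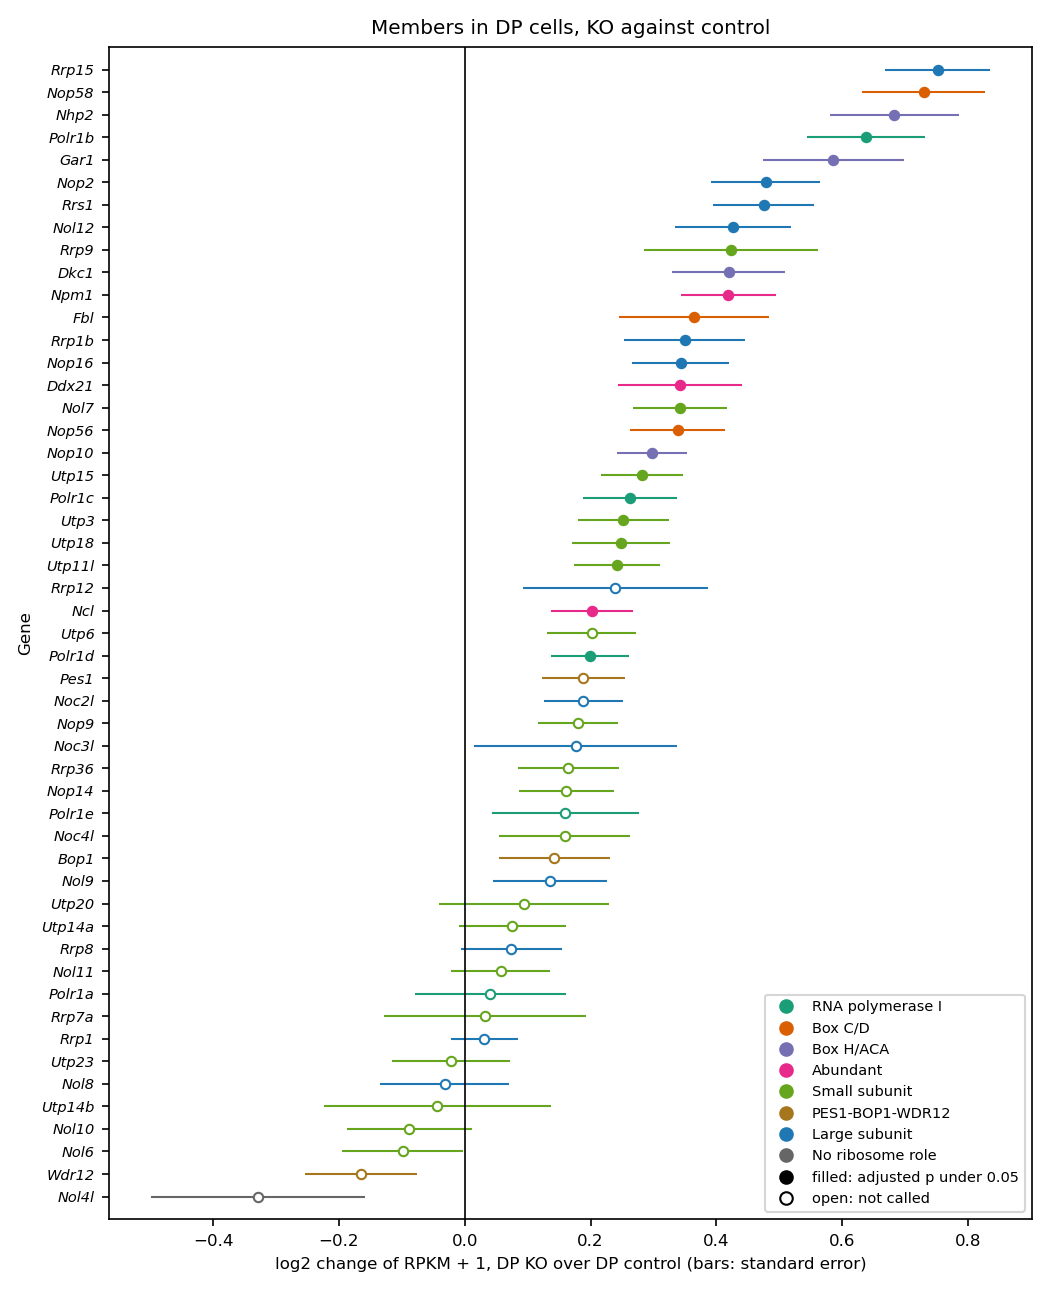
log2 change of RPKM + 1 in DP KO over DP control for the 51 tested genes (points coloured by role, bars are standard errors, filled where limma's adjusted p was under 0.05). The 25 called genes run from Polr1d at 0.20 to Rrp15 at 0.75, and Nol4l and Wdr12 have the lowest values, neither of them called.

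Whether the step from ISP to DP differed between genotypes was tested as an interaction. The fall was smaller in KO cells in 3 of 51 genes, where 3.67% of all tested genes had a higher and 0.522% a lower value in KO. These were Nop58 (difference of log2 changes 0.66, SE 0.14, adjusted p = 0.0228), Rrp15 (0.62, SE 0.12, adjusted p = 0.0158) and Nhp2 (0.61, SE 0.15, adjusted p = 0.0390). At an unadjusted p under 0.05 there were 17. The count was 0 without ISP KO 1, ISP KO 2, DP KO 2, DP control 1 or DP control 2, 1 without ISP control 2 and 11 without DP KO 1. For the step from CD25 to ISP limma called 0 of 51 genes and 0% of all tested genes, with 2 at an unadjusted p under 0.05 and 0 by voom.

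Expressed as a share, Nop58 kept 40.9% of its ISP level in DP KO and 25.4% in DP control cells, Rrp15 kept 31.4% in DP KO and 19.8% in DP control, and Nhp2 kept 36.1% in DP KO and 23.4% in DP control. Of 50 genes, 41 kept a larger share in KO than in control, a count that was not made over all genes. On the log2 scale the difference in the step, KO minus control, lay above 0 in 42 of 52 genes. Over all 17114 genes above 0 in any library it lay above 0 in 8117 and below in 8424. The median share was 46.6% in KO and 46.5% in control, so the midpoints differed little, and among genes with deep falls Rrp12 kept 18.5% in KO and 14.4% in control, and Polr1b kept 24.0% in KO and 15.2% in control. Wdr12 (119% in KO and 139% in control) and Nol10 (42.5% in KO and 61.4% in control) went the other way, and neither passed the test of the difference (adjusted p = 0.319 and 0.0783).

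**Figure D4:**
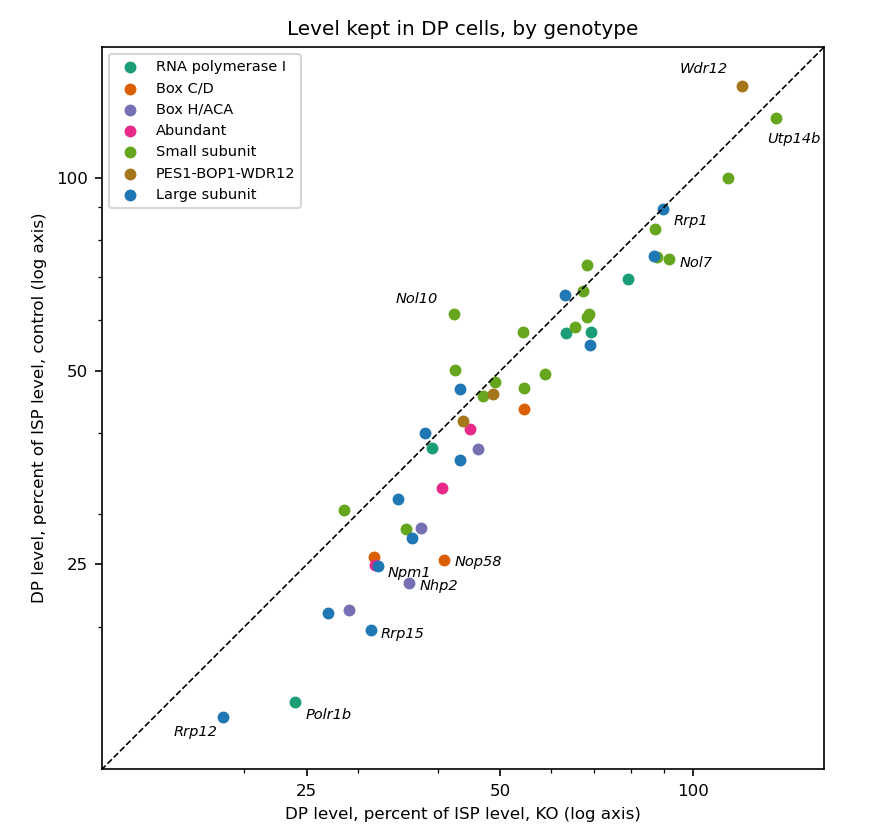
DP level as a percent of the ISP level for 50 genes (points coloured by role), KO on the horizontal and control on the vertical axis, both logarithmic, with the dashed line of equal shares. 41 points lie below the line, where KO kept the larger share, and Nol10 and Wdr12 lie above it.

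Genes of the same pathway outside the name rule were counted in the same way. In DP against ISP cells 35.0% of all tested genes were lower and 35.6% higher. Of 108 other ribosome biogenesis genes, 96 were lower and 4 higher in DP than in ISP cells (median log2 change -0.72), and 28 (25.9%) were higher and 0 lower in DP KO than in DP control, beside 49.0% of the 51 genes and 14.1% of all tested genes higher. Nolc1, a chaperone of snoRNA particles, averaged 27.6 ± 1.17 RPKM in DP KO and 20.4 ± 0.659 RPKM in DP control (0.42, SE 0.06). Gnl3, a nucleolar GTPase, averaged 34.2 ± 7.51 RPKM in DP KO and 20.9 ± 0.401 RPKM in DP control (0.67, SE 0.11). Mrto4, which prepares the P stalk of the large subunit, averaged 28.9 ± 2.12 RPKM in DP KO and 19.7 ± 0.787 RPKM in DP control (0.53, SE 0.07). Of 14 RNA exosome genes 6 were higher in DP KO, with Exosc8 at 144 ± 11.7 RPKM in DP KO and 104 ± 2.90 RPKM in DP control.

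Ribosomal protein genes stood beside them. Of 85 tested genes for cytosolic ribosomal proteins DP cells had 82 lower than ISP cells, and DP KO had 55 higher than DP control, and they made up 5.22% and 5.19% of all RPKM in DP KO, 4.68% and 4.69% in DP control, and 8.09% to 8.78% in ISP libraries. Of 77 genes for mitochondrial ribosomal proteins 69 were lower in DP than in ISP and 43 were higher in DP KO. Myc was at 35.5 and 41.6 RPKM in DP KO, 20.9 and 18.8 RPKM in DP control, 152 and 153 RPKM in ISP KO and 130 and 138 RPKM in ISP control libraries. It was higher in DP KO than in DP control (log2 change 0.92, SE 0.08, adjusted p = 1.03e-04), and its fall from ISP to DP was smaller in KO (difference 0.74, SE 0.11, adjusted p = 0.0101). Its dimer competitor Mxd1 was lower in DP KO (-0.69, SE 0.12). Of the 9 listed genes for MYC and its partners 2 were higher and 1 lower in DP KO. Mxd3, of the same list, was called higher in KO by the interaction test in limma (difference 0.71, SE 0.14, adjusted p = 0.0181).

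Cell cycle genes and markers of other cells were counted between the genotypes in DP cells in the same way. Among all tested genes 14.1% were higher and 7.78% lower in DP KO. All 22 S phase genes were higher in DP KO, with a summed level of 2506 and 2802 RPKM in DP KO and 1853 and 1882 RPKM in DP control libraries, and 21 of 23 genes of G2 and mitosis were higher. Of 7 tested markers of NK and innate lymphoid cells 3 were higher, with sums of 185 and 230 RPKM in DP KO (none listed at 0) and 131 and 115 RPKM in DP control (Eomes listed at 0 in both). Of 10 tested myeloid markers 5 were higher, with sums of 74.4 and 90.5 RPKM in DP KO (none listed at 0) and 22.4 and 15.7 RPKM in DP control (Cd14 and Elane listed at 0). Of 3 tested markers of thymic epithelium 1 (Epcam) was higher. Of 2 tested markers of mesenchyme and endothelium 1 (Pecam1) was lower, with list sums of 39.6 and 36.5 RPKM in DP KO and 47.2 and 47.6 RPKM in DP control libraries. Of 3 tested long nuclear RNAs 1 (Neat1) was lower, with sums of 225 and 137 RPKM in DP KO and 261 and 237 RPKM in DP control libraries. Of 10 genes of thymocyte identity 3 (Cd247, Il2ra and Cd4) were lower in DP KO. Cd4 was at 249 and 191 RPKM in DP KO and 344 and 338 RPKM in DP control libraries (-0.64, SE 0.18, adjusted p = 0.0253). The part of any of these in the differences of the ribosome assembly genes was not tested.

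**Figure D5:**
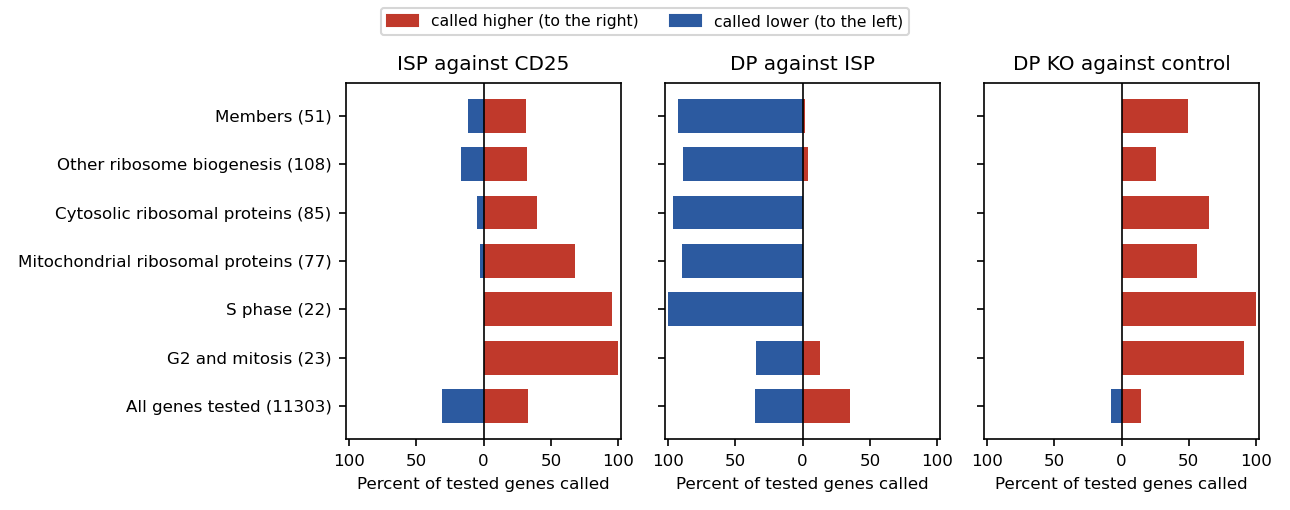
Percent of tested genes called higher (red, to the right) and lower (blue, to the left) in 3 comparisons, for the 51 genes, for 5 other gene lists and for all 11303 genes tested, with the number of genes tested in brackets. In DP against ISP, 47 of the 51 genes and 82 of 85 cytosolic ribosomal protein genes are lower, and in DP KO against DP control no gene of the 6 lists is lower.

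Promoters are printed for the genes with the largest log2 changes in DP KO (Rrp15, Nop58, Nhp2 and Polr1b). Nop2 was picked in addition and not by rank, since Gar1 had a larger change and is not printed. RefSeq start sites on GRCm38.p6 were in the table for 42 of the 53 genes. Below are the last 100 bases before the start of each gene, 5′ to 3′ on the strand of the gene, with an E-box (CACGTG, the site of MYC and its partner MAX) or a GC box (GGGCGG on either strand, the site of SP1) in capitals.
Rrp15, chr1:186749359-186749458, minus strand: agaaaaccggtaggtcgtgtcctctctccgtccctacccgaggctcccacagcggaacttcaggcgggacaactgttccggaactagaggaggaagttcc
Nop58, chr1:59684906-59685005, plus strand: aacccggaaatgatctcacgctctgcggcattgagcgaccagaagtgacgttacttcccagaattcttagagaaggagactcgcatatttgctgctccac
Nhp2, chr11:51619673-51619772, plus strand: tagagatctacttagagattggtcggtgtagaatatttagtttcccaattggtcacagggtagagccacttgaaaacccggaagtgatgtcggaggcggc
Polr1b, chr2:129100896-129100995, plus strand: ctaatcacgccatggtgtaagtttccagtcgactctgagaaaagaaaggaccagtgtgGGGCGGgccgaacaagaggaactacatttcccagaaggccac
Nop2, chr6:125131783-125131882, plus strand: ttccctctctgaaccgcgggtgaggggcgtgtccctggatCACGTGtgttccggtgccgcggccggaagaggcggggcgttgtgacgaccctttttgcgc

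The E-box of Nop2 begins 60 bases before its start, Polr1b has a GC box, and the other 3 have neither in the printed bases. Over the whole 300-base windows (250 bases before to 50 after the start, both strands), 7 of 42 genes (16.7%) held an E-box, namely Utp14b, Nop2, Utp20, Pes1, Utp18, Nol11 and Rrp7a. The share was 8.09% of all 27025 genes of the promoter table and 12.1% of the 8512 of them that were tested here. A GC box was in 73.8% of the 42 genes, 38.2% of all and 69.3% of the tested genes. The 300-base windows of Rrp15, Nop58, Polr1b and Nop2 held 1 GC box each and that of Nhp2 held 3. The window of Gar1 held neither an E-box nor a GC box. The motif TTCCTNGAA, a core of sites bound by BCL6, was in 1 of the 42 genes (2.38%; Noc4l), 1.86% of all and 1.52% of the tested genes. Of the 7 genes with an E-box, Nop2 and Utp18 were higher in DP KO and the other 5 were not called.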

How the data were processed

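RNA of sorted thymocytes was measured in 12 libraries. The deposited table held 1 RPKM value per gene and library; the unit was inferred from the values, since no label names it. BWA and GRCm38 are given per the submitters' processing notes, while no source used here names the counter, the annotation, a strand setting or a filter. A gene's values stepped by what 1 read is worth, and all 169595 values above 0 (100%) came out as whole reads within a tolerance of 0.02 reads. Depths recovered in this way ran from 9658180 to 14228715 reads. The deposited RPKM values were already scaled so that median-of-ratios factors deviated from 1 by at most 2.2e-10.

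Values were tested as log2(RPKM + 1) with limma 3.58.1 in R 4.3.3 (eBayes with a trend), keeping genes that reached 1 RPKM in 2 or more libraries, with Benjamini-Hochberg adjustment over all tested genes and a threshold of 0.05. A change on this scale understates that of low genes. KO and control CD25 cells were fitted alone (4 libraries, 10636 genes), and all else came from 1 fit of 6 groups (11303 genes). The procedure was run on simulated data with independent noise per gene and no shift of a whole library. That run cannot show how such shifts act on the calls. Gene positions are from a GENCODE annotation of GRCm38 and promoters from RefSeq on GRCm38.p6. The genes and lists were chosen with earlier results of these data known. Genes are named by role, or as up to 10 called genes a direction with the largest change, no overlap of libraries and a mean of at least 5 RPKM on the higher side, or because their call went against the majority; other genes named, among them Rrp1, Nol10 and Polr1e, were chosen after their values were seen. Further software was Python 3.11.15 with numpy 2.4.6, pandas 2.3.3 and matplotlib 3.10.9. Alternatives were the pseudocount, the filter, the scaling, the trend, the libraries in the fit, a replicate block, voom on recovered reads, single libraries left out and groups by library name.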

Additional observations from a re-analysis of the deposited data

Results flagged for a closer look

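The step from ISP to DP differed between genotypes, by the interaction test in limma, in Nop58 (difference of log2 changes, KO minus control, 0.66), Rrp15 (0.62) and Nhp2 (0.61). These were 5.88% of the 51 genes tested, near the 3.67% of all tested genes that were called in this direction. All 3 lost this call without ISP KO 1, ISP KO 2, DP KO 2, DP control 1 or DP control 2, Nhp2 also without either ISP control library and Rrp15 without ISP control 2; values with 1 library left out were 0.46 to 0.86.

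In 6 of the 51 genes tested both KO libraries lay above both control libraries in DP cells and below both in CD25 cells, an order that 7.68% of all tested genes had. The genes are listed because of this order. The difference between the 2 log2 changes, DP minus CD25, was 0.79 for Nop58, 0.54 for Npm1, 0.87 for Nhp2, 0.43 for Nop10, 0.44 for Polr1d and 0.55 for Rrp9. This difference between populations was not tested. None of the 6 was called in CD25 cells, where the log2 changes ran from -0.24 (Polr1d) to -0.06 (Nop58).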

How the results depend on the processing

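Groups by library name changed most counts of the anti-CD3 libraries, but not the groups of anti-CD3 against CD25, and in ISP against CD25 8 of 18 genes kept their call (Nol7, Utp3, Utp23, Nol6, Polr1a, Rrp36, Nol4l and Nop58). The count of called genes became 45 (median -1.06) for ISP KO against control, 45 (median -0.97) for DP KO against control, 36 (median -0.44) for ISP against CD25, 0 (median -0.057) for DP against ISP, 0 (median 0.058) for the ISP to DP interaction and 40 (median -1.05) for the CD25 to ISP interaction, and the median for DP against CD25 became -0.51. The direction in DP KO against control turned in all 25 called genes: Polr1b -2.07, Gar1 -1.92, Rrp15 -1.88, Fbl -1.84, Rrp1b -1.83, Nhp2 -1.80, Npm1 -1.78, Nop2 -1.73, Dkc1 -1.66, Rrp9 -1.64, Rrs1 -1.60, Nop58 -1.51, Ddx21 -1.40, Nop16 -1.28, Nop10 -1.24, Ncl -1.18, Nop56 -1.08, Utp18 -0.97, Utp15 -0.84, Utp11l -0.66, Polr1c -0.65, Nol12 -0.64, Polr1d -0.36, Utp3 -0.33 and Nol7 -0.30. It also turned in ISP against CD25 for Gar1 (-0.71), Nop2 (-0.62), Nhp2 (-0.27), Nop10 (-0.27), Utp14a (-0.11), Polr1c (-0.054), Utp11l (-0.037) and Nop9 (-0.024), and in the interaction for Nhp2 (-0.054). Among the anti-CD3 libraries, each population by library name mixes libraries of high and low Cd4 level. Within a group by name all libraries share 1 titled population, since those named KO are titled DP and those named WT are titled ISP.

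With an equal sum of RPKM, DP KO against control gave 14 called genes (median 0.10), ISP against CD25 gave 22 (9 higher, 13 lower, median -0.054), DP against ISP had a median of -0.86 and the interaction one of 0.064. DP KO against control gave 16 without a trend and 14 from its own 4 libraries. A pseudocount of 5 gave medians of -0.74 (DP against ISP), -0.84 (DP against CD25) and -0.42 (anti-CD3 against CD25). The ISP to DP interaction gave 0 with no filter and 0 without a trend. Voom called 1 gene in ISP KO against control. With 1 library left out, the called genes ranged from 11 to 25 in DP KO against control and from 0 to 11 in the interaction. The cause of these shifts was not tested.

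Replicate numbers are not stated to pair libraries, and deviations of same-numbered libraries correlated at -0.07 to 0.12 between groups. The highest value was that of ISP control with DP control. ISP control 2 and DP control 2 were also the libraries with low Xist. Whether same-numbered libraries share embryos was not tested, and the main fit has no pairing. With the replicate block, 26 genes were called in DP KO against control and 5 in the ISP to DP interaction. All 21 genes followed in DP against ISP kept their call in all 19 alternatives by title, and 14 of 18 in ISP against CD25 kept theirs in 18. Counting error is largest for the lowest genes tested: in their lowest libraries Nol4l had 16 reads and Rrp12 had 54.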
